A study of Mus musculus with 16 samples.

Results

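Mir183, Mir592 and Mir211 are mouse genes of 3 microRNAs (miRNAs) with higher small RNA levels in T cells of the bone marrow than in any other blood cell population measured. They were found by exact match of interval coordinates to GENCODE M21 genes on GRCm38. They are 3 of 1885 intervals in the count files and 3 of 543 intervals of miRNA genes whose symbol starts with Mir. GENCODE types 976 of the intervals as miRNA, but counts and shares of miRNAs below cover only the 543. The 3 genes were chosen for their high counts in T cells, so their T cell levels below are a description with no test. Tests of these 3 genes are given only for contrasts that leave T cells out.

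The series profiled small RNAs of wild-type mouse bone marrow. The 8 populations, sorted by flow cytometry on surface antigens, were labelled T, common lymphoid progenitor (CLP), common myeloid progenitor (CMP), granulocyte-macrophage progenitor (GMP), megakaryocyte-erythrocyte progenitor (MEP), B, Myeloid (spelled Myloid in the labels) and Erythroid. There were 2 libraries per population and 16 in all. No treatment or mutation was part of the design, and the labels give no age, no gate for each population and no statement that the 2 libraries came from separate mice, so p-values measure only the spread between these libraries, which may be technical.

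MicroRNAs are cut from hairpin precursors and act on messenger RNAs that pair with the seed, bases 2 to 8 of the mature strand. Mir183 belongs to the miR-183/96/182 cluster, made from a single primary transcript and known above all from sensory cells of the retina and inner ear; its member miR-182 is known to be induced in activated helper T cells, where it acts on Foxo1. Mir592 lies in Grm8, the gene of a metabotropic glutamate receptor, and is known from brain. Mir211 lies in Trpm1, a cation channel gene of melanocytes and retina, and is known as a product of the melanocyte lineage under the transcription factor Mitf.

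The 5′ mature strands show how these genes relate to each other and to their relatives. They are printed 5′ to 3′ as RefSeq gives them for GRCm38.p6, with the seed in capitals, and the miR-96, miR-182 and miR-204 strands are shown as the cluster partners of miR-183 and the family partner of miR-211.
mmu-miR-183-5p: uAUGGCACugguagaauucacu
mmu-miR-96-5p: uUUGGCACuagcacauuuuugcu
mmu-miR-182-5p: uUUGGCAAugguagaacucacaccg
mmu-miR-592-5p: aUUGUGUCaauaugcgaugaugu
mmu-miR-211-5p: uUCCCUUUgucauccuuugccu
mmu-miR-204-5p: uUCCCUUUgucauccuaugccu

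The 3 genes had 3 different seeds. With bases counted from 1 at the 5′ end, miR-183-5p and miR-96-5p differed in the seed at 1 base (A2U), and miR-96-5p and miR-182-5p at 1 base (C8A). No other mature mouse miRNA of the RefSeq table carried the seed of miR-183-5p or of miR-592-5p. The seed of miR-211-5p was shared with miR-204-5p and miR-7670-3p. Over their 22 bases, miR-211-5p and miR-204-5p differed at 1 base outside the seed (U17A).

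The counted intervals spanned whole hairpins, so a count does not tell the 5′ arm from the 3′ arm or mature RNA from precursor. The hairpins follow, in the direction of transcription, with both mature arms in capitals.
Mir183: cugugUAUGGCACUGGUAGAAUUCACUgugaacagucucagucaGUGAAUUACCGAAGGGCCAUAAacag
Mir592: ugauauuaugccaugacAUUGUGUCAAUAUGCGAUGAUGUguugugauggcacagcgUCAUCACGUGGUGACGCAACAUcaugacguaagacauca
Mir211: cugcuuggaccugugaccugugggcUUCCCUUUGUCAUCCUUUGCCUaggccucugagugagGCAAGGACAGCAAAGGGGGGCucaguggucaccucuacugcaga

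Mir183 lies at chr6:30169668-30169737 on the minus strand of GRCm38 and overlaps no other annotated gene. Mir96 follows 116 bases away at chr6:30169446-30169551, and Mir182 another 3453 bases on at chr6:30165918-30165992, both on the same strand. Mir592 lies at chr6:27936655-27936750, also on the minus strand and 2229167 bases from Mir182. It sits inside Grm8 on the same strand, in an intron of 4 annotated transcripts and in exon 6 of a noncoding processed transcript, Grm8-206. Mir211 lies at chr7:64205806-64205911 on the plus strand, in an intron of 12 annotated Trpm1 transcripts on the same strand. No other counted interval overlapped any of the 5 hairpins. The hairpins of Mir183, Mir592 and Mir211 were 70, 96 and 106 bases long, with 45.7%, 43.8% and 57.5% G and C, inside the range of 30.5% to 69.1% of the 164 tested miRNA hairpins with a sequence.

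The libraries held 8197458 to 41799906 counts, and the T libraries 12723900 and 18191612. Since 89.0% to 93.2% of the listed values were even, both mates of a read pair appear to have been counted, and counting intervals were computed on read pairs. The libraries had been selected on a gel for inserts of snoRNA length, and intervals of miRNA genes took only 0.535% to 3.18% of counts per library. That share averaged 1.66% ± 0.0994 in T, 3.12% ± 0.0854 in Myeloid and 0.678% ± 0.0120 in B (SD, n = 2 libraries each). The 2 libraries of GMP had 0.688% and 1.60%, those of MEP 1.39% and 0.535%, and those of Erythroid 0.746% and 1.94%, and each of these 6 libraries had its highest Spearman correlation with a library of another population. Levels below are CPM over library sizes scaled by the trimmed mean of M-values (TMM-scaled CPM).

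Small RNA libraries hold no messenger RNA markers, so the T label could be set only against miRNAs known from blood lineages. Mir150 and Mir342, known from lymphocytes, summed to 324 to 348 TMM-scaled CPM in the T libraries, 87.9 to 108 in those of B and 11.8 to 60.1 in the libraries of the other 6 populations. Mir223, known from myeloid cells, reached 293 to 335 TMM-scaled CPM in T, against 895 to 946 in Myeloid. It stood at 138 to 147 in B and at 297 to 590 in Erythroid. Mir144 and Mir451a/Mir451b, known from the red cell lineage, summed to 30.2 to 37.8 in T and 114 to 184 in Erythroid. They were about as high in MEP, at 127 to 187, and in CLP, at 124 to 134. A set of 5 progenitor miRNAs (Mir99a, Mir125a, Mir125b-1, Mir125b-2 and Mir126a) had a mean sum of 17.8 in T. That was below the 38.1 of CMP but above CLP, GMP and MEP, at 11.8, 14.6 and 14.1. The lymphocyte miRNAs were thus highest in T. The red cell and progenitor sets did not part the populations cleanly, and none of the marker sets of other lineages was at 0 in T. Their part in the levels below was not tested.

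Mir592 was the most abundant of the 3 genes in T. It had 78 and 122 counts in the 2 T libraries, against 0 and 8 in CLP, 0 and 2 in CMP, 4 and 2 in GMP, 6 and 0 in MEP, 14 and 14 in B, 4 and 26 in Myeloid, and 4 and 16 in Erythroid. Both T libraries lay above the other 14, of which 11 listed the gene. In TMM-scaled CPM, Mir592 averaged 8.16 ± 0.856 in T libraries and 0.962 ± 0.187 in B, the next population (SD, n = 2 libraries each). Pooled over both libraries, the level in T was 8.25 TMM-scaled CPM with an exact 95% Poisson interval of 6.71 to 10.03, and that in B was 0.944 with an interval of 0.516 to 1.58. The intervals did not overlap. T held 66.7% of the 300 counts of Mir592 in the series.

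Mir183 had 20 and 20 counts in the T libraries, against 4 and 8 in CLP, 2 and 8 in Myeloid, 6 and 0 in MEP, 0 and 4 in B, 0 and 2 in GMP, and 0 in every library of CMP and Erythroid. Again both T libraries lay above the other 14, and 7 of those listed no count. T held 54.1% of the 74 counts of Mir183. The mean level was 1.69 ± 0.354 TMM-scaled CPM in T and 0.175 ± 0.00201 in CLP, the next population. Pooled, T stood at 1.65 with an interval of 1.01 to 2.55, and CLP at 0.175 with an interval of 0.0641 to 0.3801. CMP and Erythroid were at 0. Set against 3 read pairs over the 2 libraries of a population, the pooled level in T was at least 8.96-fold higher than CMP or Erythroid, a limit that leaves out the counting error of T itself.

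Mir211 was the closest to absent outside T. It had 24 and 16 counts in the T libraries, against 0 and 4 in Myeloid, 2 and 0 in GMP and 2 and 0 in CLP, and 0 in all libraries of CMP, MEP, B and Erythroid. T held 83.3% of its counts, and only 3 of the other 14 libraries listed it. Its mean level in T was 1.74 ± 0.831 TMM-scaled CPM, and its 2 T libraries were farther apart, at 2.32 and 1.15, than those of Mir183, at 1.94 and 1.44. Pooled, the level in T was 1.65 TMM-scaled CPM with an interval of 1.01 to 2.55, equal to that of Mir183 because both genes had 40 counts there. The next population, Myeloid, stood at 0.0688 with an interval of 0.00833 to 0.249. On the same limit of 3 read pairs per population, which leaves out the counting error of T itself, the pooled level in T was at least 8.15-fold higher than any of the 4 populations at 0.

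**Figure D1:**
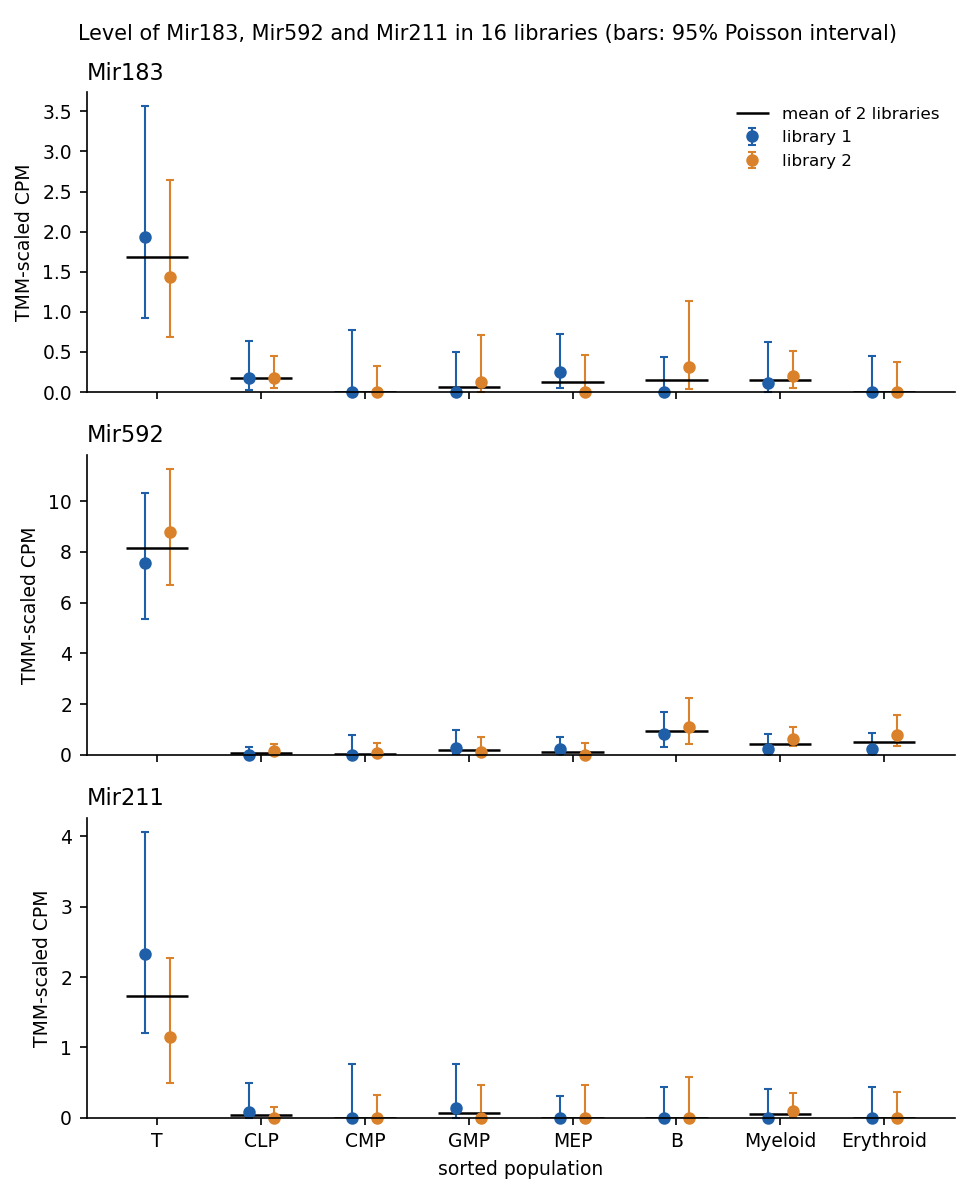
Level of each gene (y axis, TMM-scaled CPM) in the 2 libraries of 8 sorted populations (x axis), with exact 95% Poisson intervals on read pairs as bars and the mean of the 2 libraries as a line. Both T libraries stand above every other library for Mir183, Mir592 and Mir211, and B is the next population only for Mir592.

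Set against the other 14 libraries pooled, T was 24.4-fold higher for Mir592 (exact 95% interval 17.2 to 35.0), 14.4-fold for Mir183 (7.15 to 29.2) and 61.1-fold for Mir211 (20.5 to 246). These intervals cover counting error only, since reads were amplified by PCR and carried no molecular identifiers. Over tested features, the 2 libraries of a population differed by more than counting error. Chi-squared per degree of freedom was 8.63 in T and ran from 3.09 in CMP to 114 in GMP. The wide interval of Mir211 rests on 8 counts outside T, and leaving out the second Myeloid library, which held 4 of them, moved its fold to 106. For each gene both T libraries gave a high fold when set alone against the other 14, at 22.4 and 26.0 for Mir592, 16.9 and 12.5 for Mir183, and 86.1 and 42.6 for Mir211. In bulk RNA, more T cells expressing a miRNA and more of it per cell cannot be told apart.

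Levels were also set against the summed miRNA counts of each library, since T ranked behind Myeloid in miRNA share. On that scale Mir592 averaged 386 ± 1.41 CPM of miRNA counts in T libraries and 116 ± 16.8 in B. Mir183 averaged 81.2 ± 24.97 in T and 20.3 ± 1.52 in CLP, and Mir211 averaged 84.7 ± 47.9 in T and 10.3 ± 14.5 in GMP (SD, n = 2 libraries each). T remained the highest population for all 3 genes on this scale, with a smaller distance to the next one. The folds of T over the other 14 libraries pooled were 16.1 for Mir592, 9.49 for Mir183 and 40.3 for Mir211 when libraries were scaled on miRNA intervals.

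The cluster partners of Mir183 were measured in the same libraries, and both were highest in T. Mir182 had 64 and 58 counts in T, against 8 and 8 in B, 2 and 24 in Myeloid, 10 and 6 in MEP, 4 and 18 in CLP, 4 and 4 in Erythroid, 0 and 2 in GMP, and 0 and 2 in CMP. Mir96 had 18 and 8 counts in T, against 6 and 0 in Myeloid, 0 and 4 in CLP, 2 and 0 in MEP, and 0 in CMP, GMP, B and Erythroid. Pooled, T was 16.2-fold higher than the other 14 libraries for Mir182 (10.9 to 24.3) and 26.5-fold for Mir96 (9.39 to 84.9), beside the 14.4-fold of Mir183. The 3 intervals overlap. The summed level of the 3 hairpins was 6.18 and 9.88 TMM-scaled CPM in the T libraries and at most 0.938 in the other 14.

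**Figure D2:**
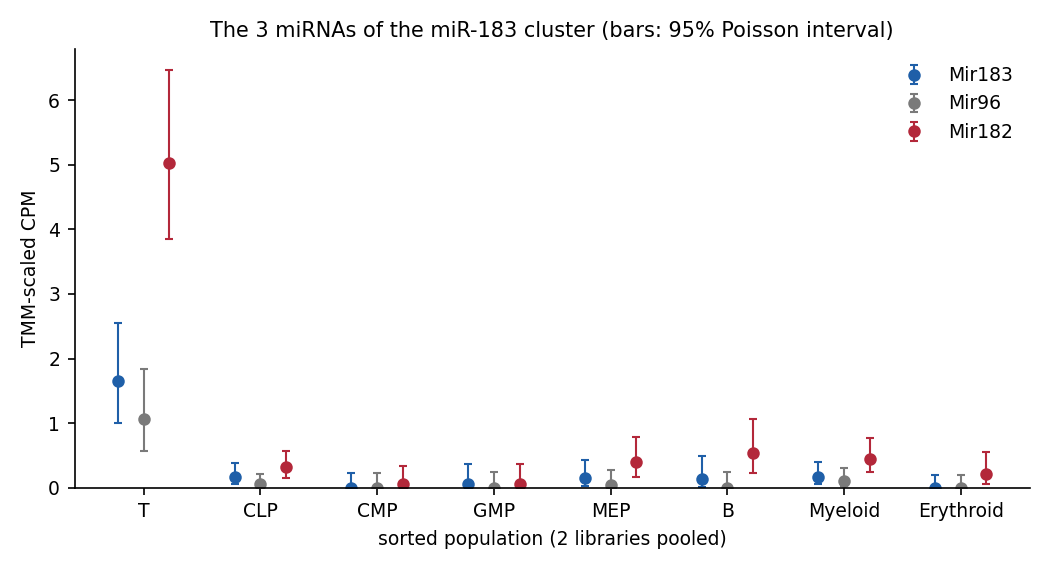
Pooled level (y axis, TMM-scaled CPM) of Mir183, Mir96 and Mir182 in the 8 populations (x axis, 2 libraries pooled), with exact 95% Poisson intervals on read pairs. In T, Mir182 stands at 5.03, Mir183 at 1.65 and Mir96 at 1.07, and every other population lies at or below the 0.540 of Mir182 in B.

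The 3 hairpins of the cluster were not equally abundant in T. Per 100 bases of hairpin, the pooled T level was 6.71 TMM-scaled CPM for Mir182, 2.36 for Mir183 and 1.01 for Mir96. On the same scale per 100 bases, T had 8.59 for Mir592 and 1.56 for Mir211. Mir183 and Mir211 had 40 counts each in T, so they differ on this scale by hairpin length alone. Whether counts grow with hairpin length was not tested. Ligation and gel recovery can differ between hairpins, and their part in this order was not tested. Mir204, the family partner that shares the seed of miR-211-5p, was listed in none of the 16 libraries.

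All 3 genes passed the filter on low counts with the 16 libraries together, but only Mir592 passed it when T was left out, so the high T counts carried Mir183 and Mir211 into the fit. Mir182 likewise passed only with T. Of the 749 small RNAs tested, 18.3% were higher in T than the mean of the other 7 populations at an adjusted p under 0.05 by edgeR's quasi-likelihood test, Benjamini-Hochberg adjusted, and 29.5% were lower. That split of 137 higher and 221 lower moved with the scaling, to 167 and 171 with size factors from edgeR's relative log expression method, 72 and 304 with library totals, and 47 and 261 with scaling on miRNA intervals. Of the 201 tested miRNAs, 30.3% were higher and 3.48% lower. Features that were higher by that test and had both T libraries above the other 14 made up 8.41% of all tested and 12.4% of the miRNAs. Outside the 3 genes, Mir182 and then Mir150 had the largest fitted differences among these 63 features. The 3 genes had the largest fitted differences in T of all 749 tested. They were chosen for their height in T, so this is no test of them.

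**Figure D3:**
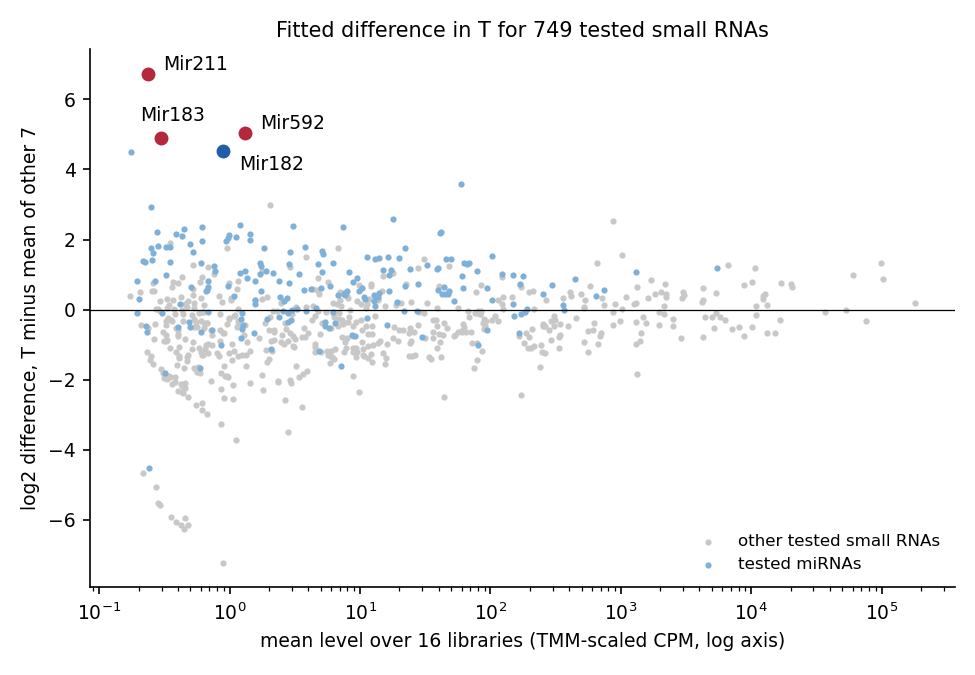
Fitted log2 difference of T minus the mean of the other 7 populations (y axis) against the mean level over 16 libraries (x axis, TMM-scaled CPM, log axis) for the 749 tested small RNAs. Mir211, Mir592, Mir183 and Mir182 stand at the top, at mean levels of at most 1.32 TMM-scaled CPM; fitted values of features with a population at 0, Mir183 and Mir211 among them, depend on the count added by the fit.

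Outside T cells, Mir592 had a lower mean over progenitors than over mature cells. Its libraries stood at 0 and 0.174 TMM-scaled CPM in CLP, 0 and 0.0870 in CMP, 0.272 and 0.127 in GMP, and 0.249 and 0 in MEP, against 0.830 and 1.09 in B, 0.223 and 0.646 in Myeloid and 0.241 and 0.801 in Erythroid. Both B libraries and the second library of Myeloid and of Erythroid lay above all 8 progenitor libraries, while the first library of Myeloid and of Erythroid lay within their range. The mean of CLP, CMP, GMP and MEP was lower than that of B, Myeloid and Erythroid by a log2 difference of -2.35 (SE 0.58, adjusted p = 0.00792 by edgeR's quasi-likelihood test, Benjamini-Hochberg adjusted). In this contrast 21% of all tested small RNAs and 26.4% of tested miRNAs were lower in progenitors, and 19.4% and 3.98% were higher, so Mir592 is among many miRNAs called lower there. The split over all small RNAs, 145 higher and 157 lower in progenitors, was 217 and 98 with library totals and 139 and 46 with scaling on miRNA intervals. The call was lost without the second Myeloid library (log2 difference -1.99, adjusted p = 0.0563). With GMP, MEP and Erythroid left out, CLP and CMP stood below B and Myeloid by a log2 difference of -2.96 (adjusted p = 0.00140 by edgeR). Set against summed miRNA counts, Mir592 averaged 116 CPM in B, 36.2 in Erythroid and 15.6 in Myeloid. On that scale it averaged 3.73 in CMP to 24.8 in GMP among progenitors, so Myeloid lay within their range.

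**Figure D4:**
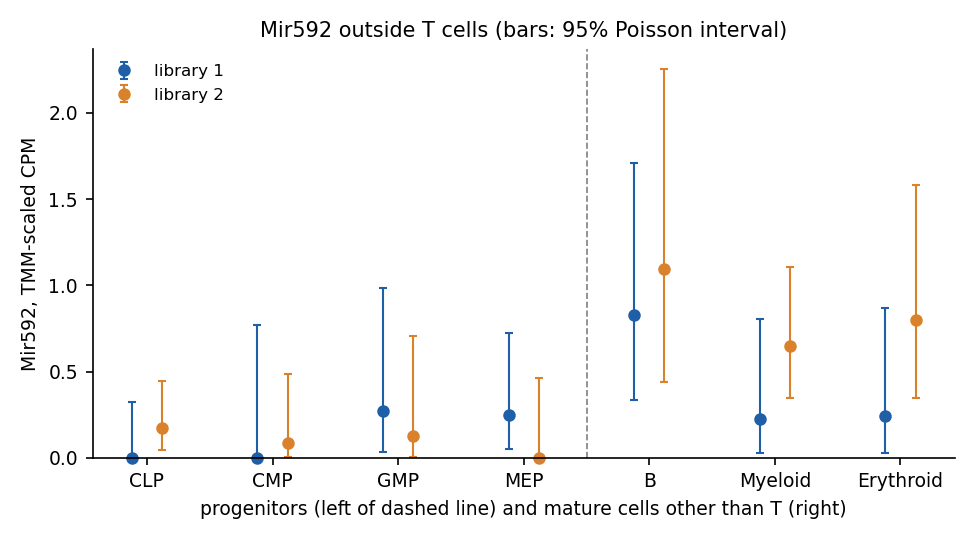
Mir592 (y axis, TMM-scaled CPM) in the 2 libraries of the 7 populations other than T (x axis), with exact 95% Poisson intervals on read pairs; the dashed line parts progenitors from mature cells. The 8 progenitor libraries lie at 0 to 0.272 and the 6 mature libraries at 0.223 to 1.09.

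Mir592 was also lower in CLP, with 0 and 8 counts, than in B, with 14 and 14. The log2 difference was -3.09 (SE 1.00, adjusted p = 0.0366 by edgeR's quasi-likelihood test), in a contrast where 14.7% of tested small RNAs were lower in CLP and 15.8% higher, with 4.98% of tested miRNAs each way. The split of 118 higher and 110 lower in CLP was 242 and 54 with library totals and 42 and 21 with scaling on miRNA intervals. This call rests on few counts. The adjusted p by edgeR was 0.0583 with library totals, 0.0901 with scaling on miRNA intervals, 0.0629 with T left out of the fit and 0.0514 to 0.124 when the first CLP, the second CMP, either B or the first T library was left out. A test over all 7 populations other than T, which called 53.5% of small RNAs and 46.8% of miRNAs, gave Mir592 an adjusted p of 0.0797 by edgeR.

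Mir183 and Mir211 were too low outside T to order the other populations. Since only their T counts carried them past the filter, no test among the other populations is given for Mir183, Mir211 or Mir182. The Poisson intervals of neighbours in the order of levels overlapped everywhere below T for Mir183, Mir211 and Mir592, although both B libraries lay above those of Erythroid for Mir592. For Mir183 the order was T, CLP, Myeloid, MEP, B and GMP, then CMP and Erythroid at 0. For Mir211 it was T, Myeloid, GMP and CLP, then the 4 populations at 0. Whether progenitors and mature cells differ in these genes could not be judged from so few counts.

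The features most like each gene over the 8 populations were ranked by Pearson correlation of mean log2(TMM-scaled CPM + 0.5). Only tested features outside the 3 genes were ranked, so the 3 genes were not compared with each other. Mir96 did not pass the filter on low counts and was not ranked. For all 3 genes, Mir182 was nearest, at r = 0.975 for Mir183, 0.956 for Mir592 and 0.941 for Mir211 (n = 8 populations each). Mir183 was next most like Mir1843a (r = 0.913) and Mir342 (r = 0.897), Mir592 like the snoRNA Gm23246 (r = 0.955) and Mir342 (r = 0.943), and Mir211 like Snord64 (r = 0.921) and Mir155 (r = 0.870). These are descriptions of genes chosen for the same high point in T, and the 8 points share libraries and depth. The levels differ widely. Mir342 averaged 63.7 ± 1.69 TMM-scaled CPM in T and Mir155 12.4 ± 0.210, against 8.16 for Mir592.

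A list of 14 miRNA genes known from T cell biology, chosen with earlier results of these data known, gives the setting of these levels. Mir150 and Mir342, the lymphocyte markers above, are among them. So are Mir181a-1 with Mir181a-2 and Mir29b-1 with Mir29b-2, so the counts below are of genes, not of separate mature miRNAs. All 14 were listed and 12 were tested, of which 11 were higher in T and 0 lower by edgeR's quasi-likelihood test, beside the 30.3% of all tested miRNAs given above. The median log2 difference of the 12 was 1.91, beside 0.65 over the tested miRNAs and -0.22 over all tested small RNAs. Mir150, which restrains Myb in lymphocytes, averaged 272 ± 18.2 TMM-scaled CPM in T libraries and 81.8 ± 10.4 in B, with a log2 difference of 3.59 in T over the mean of the other 7 (SE 0.27, adjusted p = 8.39e-07). Mir146, which dampens NF-kB signalling, averaged 122 ± 13.7 in T and 58.9 ± 7.15 in Myeloid, with a log2 difference of 2.18 (SE 0.30, adjusted p = 9.71e-05). Mir155, needed for T helper responses, had a log2 difference of 1.58 (SE 0.22, adjusted p = 0.000118). The untested members, Mir31 and Mir326, were at 0 counts in T, where Mir31 had 20 counts in MEP and 16 in Myeloid. Mir10a was tested without a call, at a log2 difference of 0.14. Mir21a, Mir29c and Mir10a averaged higher in Myeloid, at 11299, 3.71 and 904 TMM-scaled CPM, than in T, at 9803, 2.24 and 338. The other tested members of the list averaged highest in T on this scale. Set against summed miRNA counts, Mir155, Mir181a-1 and Mir181a-2 averaged higher in B, at 709, 6696 and 6027 CPM of miRNA counts. In T they averaged 587, 5015 and 4597. The rest of these other members still averaged highest in T.

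Among the 25 miRNAs that were called higher in T with both T libraries above the other 14, the largest differences after Mir182, Mir150 and Mir342 were those of Mir200a and Mir501. Mir200a, of a family known from epithelia, averaged 3.76 ± 0.438 TMM-scaled CPM in T and 0.838 over the other 7 populations. Mir501 averaged 9.37 ± 0.370 in T and 2.18 over the other 7. They were picked by this difference, so no test of it is given.

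Because Mir183 and Mir592 are best known from sensory and brain cells, 6 neural miRNA genes were read in the same libraries. The genes Mir124a-1, Mir124a-2 and Mir124a-3 were at 0 in all 16 libraries. The genes Mir9-1, Mir9-2 and Mir9-3 summed to 0.287 and 0.581 TMM-scaled CPM in T, against 0.435 and 0.625 in CMP and at most 0.414 in the other 6 populations. The neural miRNA levels of T and CMP thus overlapped. Those of T lay below the 7.55 and 8.76 of Mir592 in T and, by less, below the 1.94 and 1.44 of Mir183.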

How the data were processed

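Small RNA of 8 bone marrow populations was sequenced with 2 libraries each. The authors deposited raw counts per interval, with no normalization. Trimmomatic 0.38, Bowtie2 2.3.4.1 and GRCm38 are named in the submitters' processing notes; the counting program, its annotation and use of strand are not given in the sources used here. Intervals missing from a file were taken as 0, and 1884 of 1885 matched GENCODE M21 exactly. Features passing filterByExpr (edgeR 4.0.16, minimum count 10) were fitted over all 16 libraries with a mean per population, TMM scaling and quasi-likelihood tests, with Benjamini-Hochberg adjustment over 749 features and a threshold of 0.05. The step was tested on simulated data. Poisson and ratio intervals (95%) used read pairs, with SciPy 1.17.1. Genes and lists were chosen with earlier results of these data known. Named genes were the 3 genes, the listed genes and the 5 other miRNAs with the largest T differences. The 3 tested features most like each gene, outside the 3 genes, were also named (log2 of TMM-scaled CPM + 0.5). Alternatives were other scalings, filters, DESeq2 1.42.0, halved counts, summed populations, a replicate block and each library left out; leaving out T, or GMP, MEP and Erythroid, was added after seeing the data.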

Additional observations from a re-analysis of the deposited data

How the results depend on the processing

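Of 749 features tested, 358 were called for T against the other 7 populations and 401 among those 7. Progenitors against mature cells gave 302 and CLP against B 228. Scaling on miRNA intervals gave 198 among the 7, 185 for progenitors against mature cells and 63 for CLP against B. It moved the median log2 difference of all features in T to -0.99, and library totals moved it to -0.61, from -0.22. A minimum of 10 CPM in 2 libraries gave 197 calls among 379 tested features for progenitors against mature cells. Summing the libraries of each population gave 13 (3 higher, 10 lower) among 948 tested. Leaving out single libraries gave 142 to 238 calls for CLP against B among 811 to 834 tested. Leaving out GMP, MEP and Erythroid gave 349 among 719 tested. The number tested thus changed with the filter and the libraries used, so bare counts of calls do not compare directly. With at least 10 CPM in 2 libraries, 7 of 8 tested T cell miRNA genes were higher in T, and 9 of 12 with scaling on miRNA intervals. The 30.3% of all tested miRNAs called higher belongs to the main fit. That share is not given here for these 2 settings, so the 2 counts have no background beside them.

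For Mir592, the adjusted p among the 7 populations was 3.62e-05 with no filter, 0.000548 with DESeq2 and 0.0369 to 0.165 with single libraries left out. Its log2 difference between progenitors and mature cells was -3.49 to -1.97 with single libraries left out, with the call lost in 1 of 16, and stayed called under the other alternatives run. Between CLP and B it was -7.19 to -2.50 with single libraries left out, where the lowest value leaves CLP at 0, and -2.68 with library totals, -3.05 with scaling on miRNA intervals and -3.11 with T left out, all 3 past the threshold no longer. The fold of T over the other 14 libraries was 10.8 (library totals) and 9.49 (miRNA scaling) for Mir183, with 12.5 to 16.9 for single libraries left out, and 18.3 and 16.1 for Mir592, with 22.4 to 28.5. That of Mir211 was 42.6 to 106. The Mir592 level in T was 6.42 CPM with library totals and 7.55 to 8.76 TMM-scaled CPM in single T libraries. The cause of these shifts was not tested.

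Replicate numbers were not used as pairs in the main fit. Of 28 pairs of populations, 18 had same-numbered deviations correlated over 0.1, and the correlations ran from -0.91 to 0.83. In 7 of 8 populations libraries correlated on average better with their own number. MEP went the other way, with a mean correlation of -0.447, and every negative correlation involved MEP. Whether the numbers mark a shared handling of libraries was not tested. With the replicate block, calls numbered 352 in T, 386 among the 7, 278 for progenitors and 225 for CLP against B. Mir592 then had -2.33 and -3.22 in progenitors against mature cells and in CLP against B, and an adjusted p among the 7 populations of 0.0872 by edgeR.

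Depth limits all 3 genes: outside T they rest on 34, 100 and 8 counts for Mir183, Mir592 and Mir211.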
